A study of Mus musculus with 6 samples.

Results

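The 10 genes described here encode RNA-binding proteins of neurons, and their RNA was followed in the cervical cord of mice at embryonic day 11.5: Elavl2, Elavl3 and Elavl4 of the Hu family, Celf3, Celf4 and Celf5, Nova1 and Nova2, and Rbfox1 and Rbfox3. They were chosen by symbol, as every row of the deposited table annotated to 1 of these names and to no other, and all 10 were found, on 11 of the 28815 probe sets. Nova1 had 2 probe sets, and the one with more annotated accessions stands for it unless stated. The 3 arrays labelled Nkx2.9 knockout, called KO-A, KO-B and KO-C here after that label, were compared with the wild-type arrays WT-A, WT-B and WT-C, all of cervical cord from which the dorsal cord and the floor plate had been left out. Nkx2-9 encodes a homeodomain factor of ventral progenitors, and the series was made to look for its effectors in spinal accessory motor neurons. The labels gave neither the allele nor the strain, and did not say whether an array held 1 embryo or a pool, so the p-values measure only the spread between these samples.

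These proteins bind short sequence motifs in RNA and set how neuronal transcripts are spliced, stabilised and translated. Hu proteins bind U-rich and AU-rich elements and appear as cells leave the cycle and become neurons, which makes them standard markers of new neurons. Nova proteins bind clusters of YCAY and Rbfox proteins bind GCAUG, both mainly to direct alternative splicing, and CELF proteins bind GU-rich elements in introns and in mature messages. Rbfox3 is the antigen known as NeuN and marks neurons that are further along in maturation. The values described here are gene-level summaries of RNA from these genes and carry no information on exon use.

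Each value was a log2 expression value centred on the probe set's own median across the 6 arrays. Levels could therefore not be seen or compared between genes, nor could the labelled tissue be checked against its markers, and the middle 2 values of a gene are equal and opposite. Nkx2-9 itself stood at -0.071, 0.26 and 0.11 on KO-A, KO-B and KO-C and at -0.21, 0.071 and -0.11 on WT-A, WT-B and WT-C, so it was not lower under the knockout label, and whether its probes lie in the deleted part is not known here. Directions given here rest on the labels. Xist, the RNA of X inactivation, stood at 4.56 and 4.91 on KO-B and KO-C and at -0.25 to 0.11 elsewhere. High Xist was thus seen under the knockout label only, so the label and Xist status cannot be fully told apart.

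Of the 10 genes, 8 were lower in the KO arrays and 2, Celf5 and Nova2, were higher, where 45% of all probe sets were lower. The median difference was -0.16 on the log2 scale, against 0.0087 over all probe sets. The Rbfox genes had the widest differences, Rbfox1 at -0.51 and Rbfox3 at -0.40, followed by Nova1 and Celf4, both at -0.26. No member passed an adjusted p of 0.05 in limma over the whole table (adjusted p from 0.812 to 0.976), and neither did any other probe set (0% called). At an unadjusted p under 0.05 there were 3 of the 10, Elavl3, Nova1 and Rbfox1, all lower, against 5.57% of all probe sets in either direction and 2.5% lower. All 3 KO arrays lay below all 3 wild-type arrays in 3 of the 10, Elavl3, Celf3 and Rbfox1, against 4.25% of complete probe sets.

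**Figure D1:**
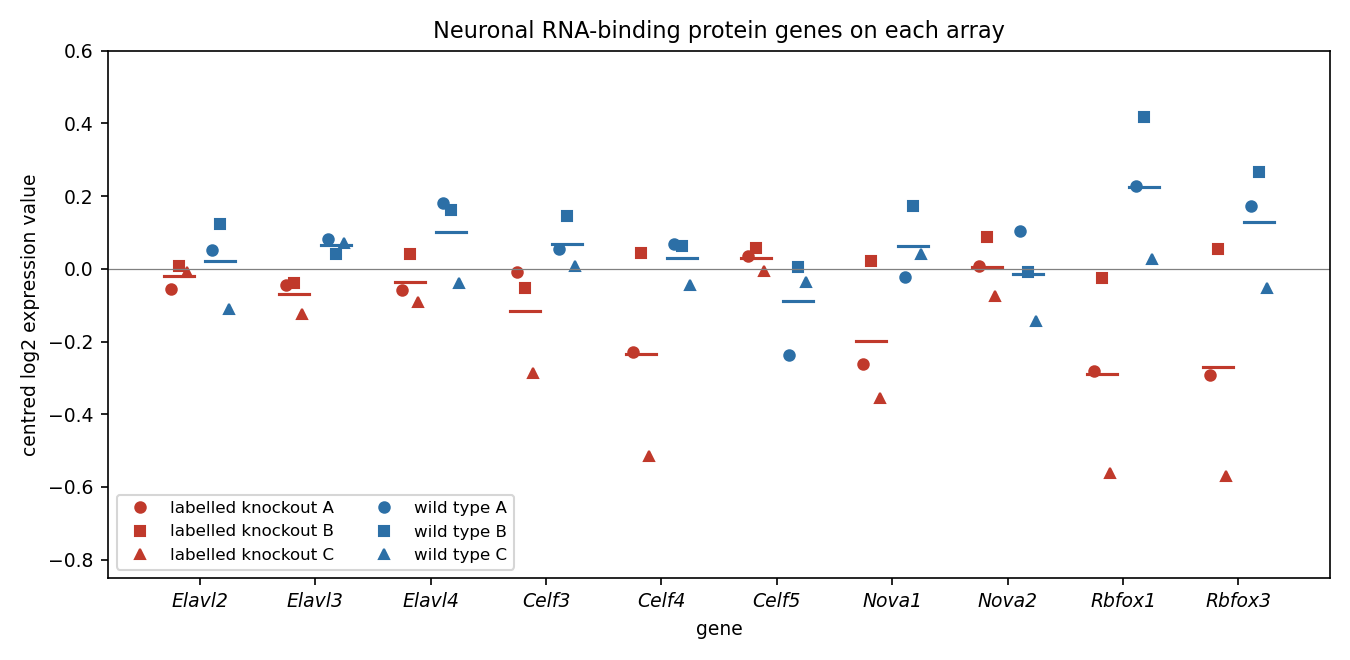
Centred log2 expression value (y axis) of each of the 10 genes (x axis) on the 6 arrays, with the KO arrays in red left of the wild type in blue, symbols for the letters A, B and C, and a bar at each group mean. KO-C is the lowest point of 7 genes, down to -0.57 for Rbfox3, while KO-B lies between -0.054 and 0.087 in all 10.

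The promoter sequences of the 3 members under an unadjusted p of 0.05 are shown because these members had the lowest p-values of the set, and because Nkx2-9 is a DNA-binding factor. The 250 bases before each RefSeq start (build GRCm38.p6) were searched on both strands for AAGTG, the core of the sites of NK2 homeodomain proteins, and for CAGCTG, an E-box of the kind that proneural bHLH factors bind, which reads the same on both strands. The 2 motifs share no end that would let them overlap. Elavl3 and Nova1 had 1 start each in the RefSeq table and Rbfox1 had 2. The windows were chr9:22052024-22052273, minus strand, for Elavl3, chr12:46818768-46819017, minus strand, for Nova1, chr16:5884543-5884792, plus strand, for the first Rbfox1 start, and chr16:7069585-7069834, plus strand, for the second. They are written 5′ to 3′ with either motif in capitals, so that AAGTG on the opposite strand appears as its reverse complement.
Elavl3: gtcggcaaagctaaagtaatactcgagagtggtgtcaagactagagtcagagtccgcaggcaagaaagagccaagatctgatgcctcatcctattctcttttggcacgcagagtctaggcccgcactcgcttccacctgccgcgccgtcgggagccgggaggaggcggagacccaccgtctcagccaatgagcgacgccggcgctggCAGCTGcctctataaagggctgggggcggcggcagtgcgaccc
Nova1: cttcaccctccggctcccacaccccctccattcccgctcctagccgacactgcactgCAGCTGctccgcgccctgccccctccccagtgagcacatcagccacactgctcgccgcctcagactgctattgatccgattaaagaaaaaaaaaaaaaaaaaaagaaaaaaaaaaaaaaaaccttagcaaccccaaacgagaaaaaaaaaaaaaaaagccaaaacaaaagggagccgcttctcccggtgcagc
Rbfox1, first start: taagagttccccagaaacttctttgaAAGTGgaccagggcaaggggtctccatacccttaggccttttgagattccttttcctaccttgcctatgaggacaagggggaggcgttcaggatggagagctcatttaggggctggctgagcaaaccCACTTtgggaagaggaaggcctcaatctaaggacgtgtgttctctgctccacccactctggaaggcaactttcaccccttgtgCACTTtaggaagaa
Rbfox1, second start: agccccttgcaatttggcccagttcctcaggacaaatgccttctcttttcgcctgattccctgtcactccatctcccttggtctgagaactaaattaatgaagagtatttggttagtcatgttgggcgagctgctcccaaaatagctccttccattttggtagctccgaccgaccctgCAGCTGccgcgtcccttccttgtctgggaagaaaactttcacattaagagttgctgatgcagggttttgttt

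The first Rbfox1 window held 3 copies of AAGTG on either strand and no CAGCTG. The Elavl3 window, the Nova1 window and the second Rbfox1 window each held 1 CAGCTG and no AAGTG. Over all 32851 RefSeq promoter windows of the same length, 40.7% held AAGTG and 13% held CAGCTG. Windows were used for 9 of the 10 genes, with 1 to 7 starts each, many of which overlap. No window of Celf4 was used, so nothing is said here of its promoter. Windows with CAGCTG were also found for 2 of 4 starts of Elavl4, 3 of 7 of Celf3 and 1 of 5 of Celf5, so the motif was not limited to the 3 genes shown. Windows with AAGTG were found for 4 of 6 starts of Elavl2, 4 of 7 of Celf3 and 1 of 2 of Rbfox1, and for no start of Elavl3, Elavl4, Celf5, Nova1, Nova2 or Rbfox3. A match of letters is a description of the window and not evidence of binding.

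Rbfox1, a splicing factor of neurons and muscle, stood at -0.28, -0.026 and -0.56 on KO-A, KO-B and KO-C, and at 0.23, 0.42 and 0.026 on WT-A, WT-B and WT-C. The groups did not overlap, but the gap between KO-B and WT-C was small. The difference was -0.51 (SE 0.16, 95% interval -0.89 to -0.14), which is 1.43-fold lower in the KO arrays and larger than the SDs of 0.27 and 0.20 (unadjusted p = 0.0152, adjusted p = 0.812 in limma).

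Rbfox3 followed Rbfox1 closely. It stood at -0.29, 0.053 and -0.57 on KO-A, KO-B and KO-C, and at 0.17, 0.27 and -0.053 on WT-A, WT-B and WT-C. KO-B was higher than WT-C, so the groups overlapped. The difference of -0.40 (SE 0.17, interval -0.80 to 0.0012) was larger than either SD, 0.31 and 0.16 (unadjusted p = 0.0505, adjusted p = 0.812 in limma). Rbfox2, the widely expressed gene of the family and not among the 10, was at -0.20 (SE 0.086), with KO-C lowest at -0.28.

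Nova1, a splicing factor of ventral brain and spinal cord neurons, stood at -0.26, 0.022 and -0.36 on KO-A, KO-B and KO-C, and at -0.022, 0.17 and 0.042 on WT-A, WT-B and WT-C. KO-B lay within the wild-type range. The difference was -0.26 (SE 0.11, interval -0.52 to -0.0039; unadjusted p = 0.0475, adjusted p = 0.812 in limma). The second Nova1 probe set gave -0.32 (SE 0.14, unadjusted p = 0.0561), with -0.21, 0.0053 and -0.50 on the KO arrays and 0.013, 0.26 and -0.0053 on the wild type. Both probe sets thus put KO-C lowest and WT-B highest.

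Nova2, its paralog with a wider part in the forebrain, was not lower on average in the KO arrays. It stood at 0.0077, 0.087 and -0.076 on KO-A, KO-B and KO-C, and at 0.10, -0.0077 and -0.14 on WT-A, WT-B and WT-C. The difference was 0.022 (SE 0.077), and its interval of -0.16 to 0.21 does not hold the value of -0.26 fitted for Nova1. A difference between the 2 genes was not tested.

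**Figure D2:**
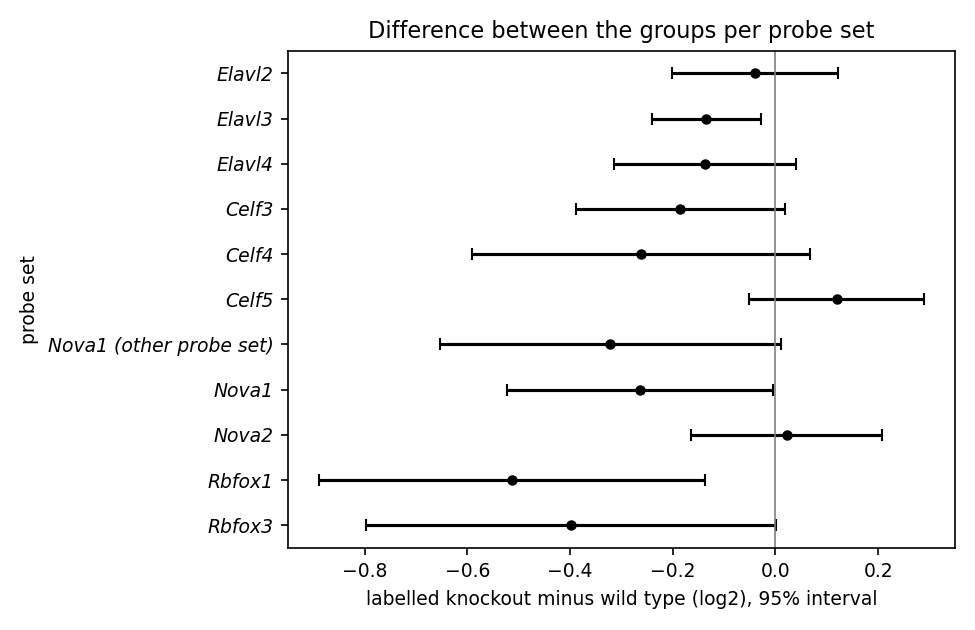
Difference between the group means, labelled knockout minus wild type on the log2 scale (x axis), for each of the 11 probe sets (y axis), with limma's 95% interval as a bar. The intervals of Elavl3, Rbfox1 and the main Nova1 probe set lie below 0 and the other 8 reach or cross it.

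Among the Hu genes, Elavl3 (HuC) had the smallest SE. It stood at -0.045, -0.040 and -0.12 on KO-A, KO-B and KO-C, and at 0.083, 0.040 and 0.071 on WT-A, WT-B and WT-C. Every KO array lay below every wild-type array, and the SDs were 0.048 and 0.022. The difference of -0.13 (SE 0.044, interval -0.24 to -0.029) was 1.10-fold (unadjusted p = 0.0204, adjusted p = 0.812 in limma). Elavl3 thus passed the unadjusted threshold with a much smaller difference than that of Rbfox1.

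Elavl4 (HuD), which is best known for stabilising the Gap43 message in growing axons, stood at -0.058, 0.040 and -0.090 on KO-A, KO-B and KO-C, and at 0.18, 0.16 and -0.040 on WT-A, WT-B and WT-C. WT-C lay among the KO arrays. The difference was -0.14 (SE 0.074, interval -0.31 to 0.040, unadjusted p = 0.109 in limma). It was -0.21 without WT-C, where the unadjusted p was 0.0147 in limma, and -0.098 without WT-A. Elavl2 (HuB) stood at -0.056, 0.0091 and -0.0091 on the KO arrays and at 0.051, 0.12 and -0.11 on the wild type. The KO arrays all lay inside the wild-type range, and the difference was -0.040 (SE 0.067, interval -0.20 to 0.12).

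The 3 CELF genes did not share a direction. Celf4, which binds many messages of synaptic proteins in excitatory neurons, stood at -0.23, 0.045 and -0.52 on KO-A, KO-B and KO-C, and at 0.069, 0.063 and -0.045 on WT-A, WT-B and WT-C. Its wild-type arrays were close together (SD 0.064) while the KO arrays were spread (SD 0.28), and the difference was -0.26 (SE 0.14, interval -0.59 to 0.067). Celf3, a splicing regulator found mainly in neurons, stood at -0.0074, -0.054 and -0.29 on the KO arrays and at 0.054, 0.15 and 0.0074 on the wild type. Its groups did not overlap, though 1 KO array lay only just below WT-C, and the difference was -0.19 (SE 0.084, interval -0.39 to 0.018, unadjusted p = 0.0677 in limma).

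Celf5, a less studied neuronal member, ran the other way. It stood at 0.036, 0.058 and -0.0046 on KO-A, KO-B and KO-C, and at -0.24, 0.0046 and -0.038 on WT-A, WT-B and WT-C. The difference of 0.12 (SE 0.071, interval -0.051 to 0.29, unadjusted p = 0.140 in limma) rested largely on WT-A and was 0.046 without it.

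The same arrays were low or high in many of the genes. KO-C was the lowest of the 6 in 7 of the 10 genes, against 18.5% of complete probe sets, and WT-B was the highest in 5, against 18%. The mean over the 10 genes was -0.12, 0.019 and -0.26 on KO-A, KO-B and KO-C, and 0.069, 0.14 and -0.028 on WT-A, WT-B and WT-C. KO-B was thus above WT-C. Over the 6 arrays, which share the genotype difference and the normalization, Rbfox3 had a Pearson correlation of 0.99 with the mean of the other 9 genes, Rbfox1 0.97, Celf4 0.94 and Nova1 0.91. Celf3 was at 0.88, Elavl4 at 0.86, Elavl3 at 0.77 and Elavl2 at 0.53, while Nova2 was at 0.39 and Celf5 at -0.36. These are descriptions over 6 points, with Spearman correlations from -0.086 for Celf5 to 1 for Rbfox3.

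The genes outside the set with the values most like the mean of the 10 were Guk1, Mras, Dixdc1, Dctn6, Pick1 and Trappc3, each with a Pearson correlation of 0.994 to 0.997 and a Spearman correlation of 1 over the 6 arrays. Guk1, a guanylate kinase gene, was at -0.34 (SE 0.13), and Pick1, which encodes a PDZ protein of synapses, at -0.21 (SE 0.10). They were picked from 19910 other genes for their likeness, so no test applies.

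Markers of other cells were also low or high on these arrays. The median of 15 neuron markers was -0.042, 0.0095 and -0.34 on KO-A, KO-B and KO-C, and 0.018, 0.18 and -0.012 on WT-A, WT-B and WT-C. In the KO arrays 14 of the 15 were lower, against 45% of all probe sets, and 2 were lower at an unadjusted p under 0.05, against 2.5%. Of these Syt1, a synaptic vesicle protein, was at -0.44 (SE 0.17) and Mapt (tau) at -0.39 (SE 0.15), both at an unadjusted p under 0.05, and Snap25 was at -0.27 (SE 0.12). In bulk tissue, fewer neurons and less of these RNAs per neuron cannot be told apart.

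Mesenchyme and vessel lists marked out KO-C. The median of 9 mesenchyme genes was 0.42 on that array, -0.014 and 0.0045 on KO-A and KO-B, and -0.050 to 0.14 on the wild type, and that of 7 vessel genes was 0.54 there and -0.13 to 0.13 on the other 5. KO-C was the highest array for 8 of the 9 mesenchyme genes and 6 of the 7 vessel genes. The share of all probe sets highest on KO-C was not worked out, so these counts have no table-wide rate beside them. Prrx1 reached 1.70 and Cdh5 1.37 there, while Col1a1 was at 0.034. Lum and Twist1 reached 3.31 and 2.32 on KO-C and were also raised on WT-B, at 1.66 and 0.86, where the mesenchyme median was 0.14. The mesenchyme exception was Dcn (decorin), with the lowest p of its list, which stood at 0.059, 0.68 and -0.24 on KO-A, KO-B and KO-C, and at -0.014, -2.02 and 0.014 on WT-A, WT-B and WT-C. The median of 14 cell cycle genes was -0.57 on WT-B and ran from -0.10 to 0.23 elsewhere. All 14 had a positive difference (median 0.31), against 55% of all probe sets. No cell cycle, mesenchyme or vessel gene had an unadjusted p under 0.05 in limma. The part of these cell lists in the differences of the RNA-binding protein genes was not tested.

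**Figure D3:**
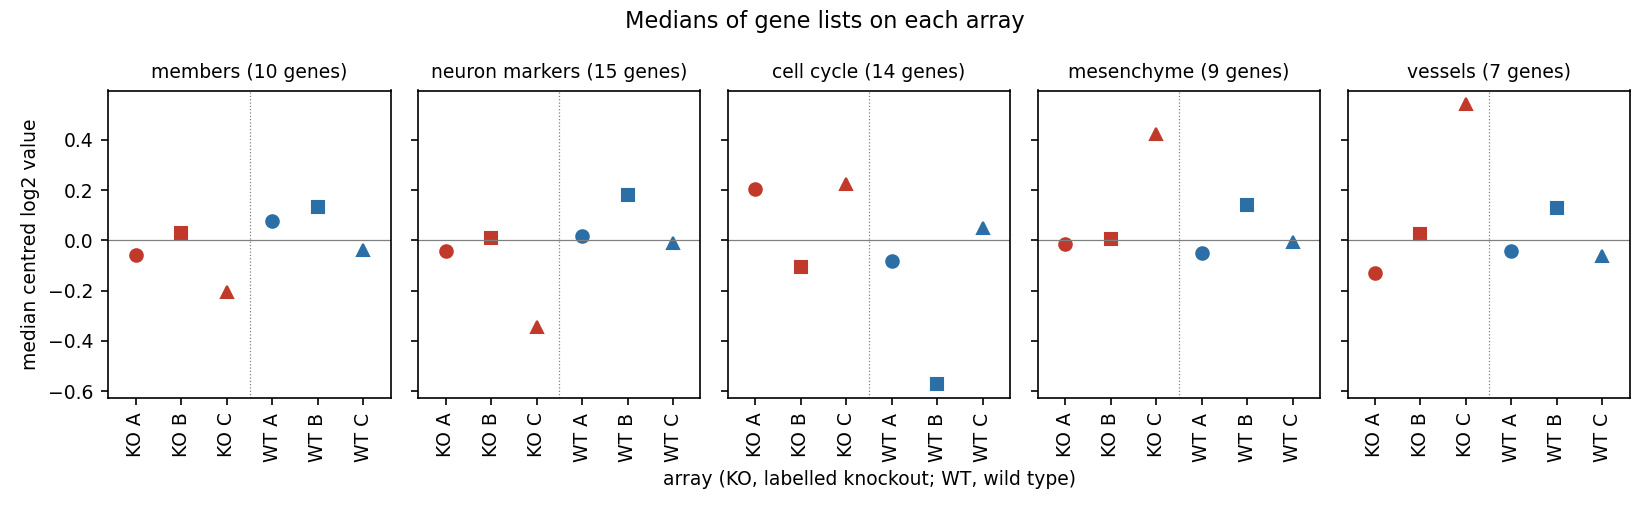
Median centred log2 value (y axis) of the 10 RNA-binding protein genes and of 4 marker lists on each array (x axis), with the KO arrays (KO, red) left of the wild type (WT, blue). The 10 genes and the neuron markers are lowest on KO-C and highest on WT-B, where mesenchyme and vessel genes peak on KO-C and cell cycle genes dip on WT-B.

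Leaving out single arrays changed the size of the differences, and the sign of Elavl2 and Nova2 only. Without KO-C the difference of Rbfox1 was -0.38, that of Rbfox3 -0.25, of Nova1 -0.18, of Celf4 -0.12 and of Celf3 -0.10, and Rbfox1 alone kept an unadjusted p under 0.05, where 4.1% of all probe sets had one. Without KO-B they were wider, at -0.65 for Rbfox1, -0.56 for Rbfox3, -0.40 for Celf4 and -0.37 for Nova1. With KO-C and WT-B both left out, 7 of the 10 genes were lower and none had an unadjusted p under 0.05, against 3.26% of all probe sets. Rbfox1 was then at -0.28, Rbfox3 at -0.18, Nova1 at -0.13, Elavl3 at -0.12 and Celf4 at -0.10. With single arrays left out in turn, Elavl3 had the narrowest range of the 10, -0.15 to -0.11.

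**Figure D4:**
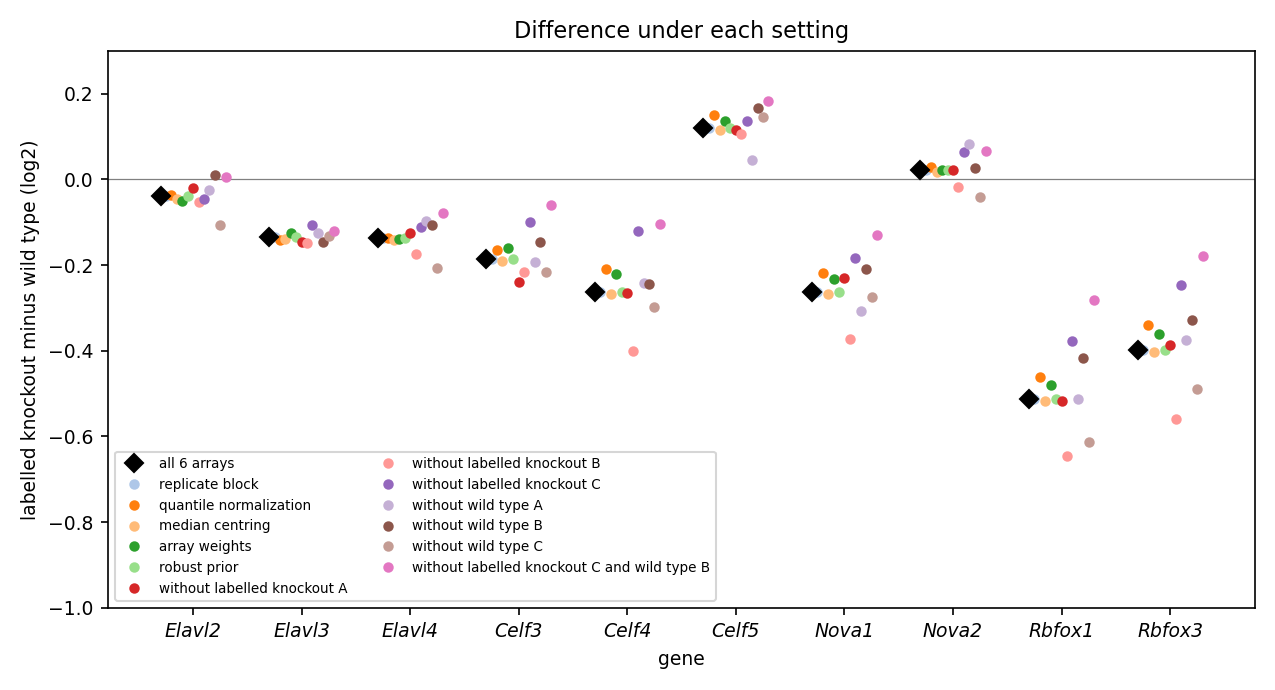
Difference, labelled knockout minus wild type on the log2 scale (y axis), of each gene (x axis) with all 6 arrays (black diamond) and under 12 alternative settings (coloured points). The replicate block leaves each difference as it is, so its point stands at the height of the diamond. Of the 10 genes only Elavl2 and Nova2 have points on both sides of 0.

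The other genes of the same families were placed beside the 10. Of the 5 measured relatives, Elavl1, Celf1, Celf2, Celf6 and Rbfox2, 3 were higher and 2 lower, with a median difference of 0.00078 and none at an unadjusted p under 0.05. Elavl1 (HuR), the Hu protein present in nearly all cells, was at 0.10 (SE 0.052), with 0.017, 0.042 and 0.053 on the KO arrays and -0.017, -0.16 and -0.025 on the wild type. Its sign was thus opposite to that of the 3 neuronal Hu genes, but its interval of -0.023 to 0.23 crossed 0 and WT-B was its lowest array. The sign of Elavl2 also turned without WT-B, to 0.010. Celf1 was at 0.11 (SE 0.093), resting on WT-B at -0.32. A second Celf1 probe set was at 0.0047 (SE 0.050), with WT-B at -0.043.

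Of 15 other RNA-binding protein genes of neurons or neuronal splicing, 9 were lower and 6 higher (median -0.023), where 45% of all probe sets were lower. At an unadjusted p under 0.05 there were 2, both lower, against 2.5% of all probe sets. These were Cpeb4, a regulator of translation, at -0.19 (SE 0.061), and Khdrbs2, a splicing factor that acts on neurexin messages, at -0.72 (SE 0.29). Khdrbs2 stood at -1.12, 0.037 and -0.61 on KO-A, KO-B and KO-C, and at -0.037, 0.44 and 0.059 on WT-A, WT-B and WT-C. Stau2, of neuronal RNA transport, was at -0.17 (SE 0.10). Ptbp2 was at -0.0036 and Srrm4 at 0.11 (SE 0.075), both splicing regulators of early neurons named after their values were seen.

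Of 16 measured RNA-binding protein genes of progenitors and dividing cells, 13 had a positive difference and 3 a negative one (median 0.076), where 55% of all probe sets had a positive one. An unadjusted p under 0.05 was reached by 1 of the 16, a share near the 5.57% of all probe sets. That was Igf2bp1, an oncofetal mRNA-binding protein, at 0.37 (SE 0.15). A second Igf2bp1 probe set was at 0.43 (SE 0.21) and did not reach it (unadjusted p = 0.0860 in limma). Lin28b and Lin28a, which block maturation of the let-7 microRNAs, were at 0.34 (SE 0.15) and 0.28 (SE 0.13). All 3 were higher on KO-A and KO-C than on every wild-type array, and KO-B lay inside the wild-type range of each.

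Of 13 messages known to be bound or spliced by these proteins, 9 were measured, 7 lower and 2 higher (median -0.12), where 45% of all probe sets were lower. At an unadjusted p under 0.05 there were 2, both lower, against 2.5% of all probe sets. Glra2, a glycine receptor subunit whose exons are a classic Nova target, stood at -0.12, -0.037 and -0.27 on KO-A, KO-B and KO-C, and at 0.47, 0.86 and 0.037 on WT-A, WT-B and WT-C, a difference of -0.60 (SE 0.20). Mapt, given above, was the other. Cacna1b, a calcium channel gene with a Nova-regulated exon, was at -0.10 (SE 0.051). Most of these are themselves neuronal genes, and Mapt and Gap43 also stand among the neuron markers. No gene of any of these lists passed an adjusted p of 0.05 in limma.

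Further lists of cell types did not share a direction. Of 12 progenitor markers 6 were higher and 6 lower in the KO arrays, with a median difference of 0.015. The 3 of lowest p were all higher, Prom1 and Notch1 at 0.36 (SE 0.13) and 0.34 (SE 0.13), and Sox3 was at 0.15 (SE 0.067). Of 8 motor neuron genes 4 were higher and 4 lower (median 0.041), with Isl2, a motor neuron homeodomain gene, at 0.18 (SE 0.067) and Slc18a3, the vesicular acetylcholine transporter gene, at -0.40 (SE 0.28). The median of 5 sensory ganglion genes was -0.041. Of 10 dorsal interneuron genes 8 were lower (median -0.10), against 45% of all probe sets. At an unadjusted p under 0.05 there were 2, both lower, against 2.5% of all probe sets. These were Barhl2 at -0.57 (SE 0.11, unadjusted p = 0.0021 in limma) and Barhl1 at -0.27 (SE 0.093). Barhl2 stood at -0.21, -0.14 and -0.36 on KO-A, KO-B and KO-C, and at 0.32, 0.14 and 0.55 on WT-A, WT-B and WT-C, without overlap.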

How the data were processed

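Cervical spinal cord RNA of 6 samples, 3 labelled Nkx2.9 knockout and 3 wild type, was amplified, biotin-labelled and hybridised to expression arrays, per the labels' protocols. The authors used RMA for the deposited log2 values, per the submitters' processing notes. Its settings and the log base are not given in the sources used here, and base 2 was taken. In the deposited table every complete probe set had a median of 0 over the arrays within 1e-06. The 24 probe sets without a value in WT-C were fitted on 5 arrays, and no member is among them. Gene symbols came from the platform annotation (21780 of 28815 probe sets with 1 symbol).

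Groups were compared with limma 3.58.1 (lmFit, eBayes) in R 4.3.3 over all probe sets with Benjamini-Hochberg adjustment and genotype as the only term; the code was tested on simulated data. The number of arrays limits the precision. Lists are described by counts and medians, 1 probe set per gene (the most accessions). Named genes were the 10 members, Nkx2-9, from the 3 of lowest p per list, and the 6 most like the members' mean. Xist, Ptbp2 and Srrm4 were added after their values were seen. Lum and Twist1 were also named outside this rule, as they are not among the 3 mesenchyme genes of lowest p. Further lists were Schwann cell and neural crest (3 genes, median difference 0.047), red cells (4 genes, 0.22) and macrophages (5 genes, -0.050). The members and lists were chosen with earlier results of these data known. Plots were made in Python 3.11.15 with matplotlib 3.10.9.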

Additional observations from a re-analysis of the deposited data

How the results depend on the processing

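KO and WT stand for the arrays labelled knockout and wild type. The median difference of the 10 genes stayed below 0 under all 13 alternatives, between -0.21 and -0.11 with single arrays left out and at -0.092 without KO-C and WT-B together, a setting added after the data were seen. Of the genes, 8 kept their sign throughout. Elavl2 turned to 0.010 without WT-B and to 0.0054 without both of those arrays, and Nova2 ran from -0.042 without WT-C to 0.082 without WT-A, and was at -0.019 without KO-B. The count of members at an unadjusted p under 0.05, 3 with all arrays, was 5 with quantile normalization of the centred values (5.74% of all probe sets) and 1 to 5 with single arrays left out. It was 5 without KO-B, where the share of all probe sets was 9.96%, and 1, Rbfox1, without KO-C (4.1%) or without WT-A (4.5%). It was 0 without KO-C and WT-B together; fewer samples enter those fits. Rbfox1 had such a p in 12 of 13 alternatives, Elavl3 in 9 and Nova1 in 6. With single arrays left out, Nova1 kept such a p only without KO-B, and it lost it with array weights too. With the letter as a replicate block the count was 6, against 8.86% of all probe sets, and no adjusted p passed. Deviations of samples that share a letter correlated at 0.16, 0.22 and 0.016 for A, B and C. Samples of different letters were not compared in this way, so whether the letters pair the samples is not known. No probe set of the table passed an adjusted p of 0.05 in any alternative except without KO-A, where 5 did, none of them a member. Without KO-A, every remaining KO array was high in Xist and every wild-type array was low. A filter on low values was not run, since the centred values hold no level. For the same reason signal over background is not known for any member.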
